A study of Mus musculus with 6 samples.

Results

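The 10 genes described here encode heat shock proteins, the stress-induced, constitutive and testis forms of the HSP70, HSP90 and HSP110 chaperones: Hspa2, Hspa1l, Hspa1a, Hspa1b, Hspa8, Hspa5, Hsp90aa1, Hsp90ab1, Hspa4l and Hsph1. They were taken by gene symbol, and all 10 were found once among the 30905 genes of each count table. Testis cells of adult male ICR mice, an outbred stock without an engineered allele in the labels, were captured in droplets for single-cell RNA-seq. There were 6 libraries, 3 from mice exposed to cigarette smoke and 3 from control mice. Smoke-exposed mice spent 30 minutes a day for 12 weeks in a chamber with the smoke of 15 cigarettes (each with 11 mg of tar and 1.1 mg of nicotine), and control mice were put in a chamber without smoke. Mice were bought at 6 weeks of age and adapted for 1 week, whereas the age label reads 8 weeks. The labels name 7 mice per group and do not tie a library to a mouse, so p-values measure the spread between these libraries, which may be partly technical.

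Chaperones of the HSP70 family bind unfolded stretches of other proteins and release them in a cycle of ATP hydrolysis, with help from J domain proteins and from nucleotide exchange factors such as the HSP110 family. HSP90 chaperones act later on nearly folded clients such as kinases and steroid receptors. In the mouse testis some members are known to be germ cell forms: Hspa2 is an HSP70 of meiotic cells without which male mice are sterile, Hspa1l is the HSP70 of spermatids, and Hspa4l is an HSP110 needed for full male fertility. Hspa1a and Hspa1b are the heat-inducible HSP70 genes, Hspa8 is the constitutive HSP70, Hspa5 (BiP) is the HSP70 of the endoplasmic reticulum, Hsp90aa1 and Hsp90ab1 are the cytosolic HSP90s, and Hsph1 is a stress-induced HSP110.

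Of the 10 members, 7 had a promoter in the RefSeq table of GRCm38.p6. Printed are 4 stretches upstream of the RefSeq start site, which show the members that share a locus or hold a stress motif before that site. Hspa1l and Hspa1a point away from each other on chromosome 17 with start sites 547 bases apart, on the plus and minus strands, and Hspa1b starts 12918 bases from Hspa1a, also on the minus strand. Capitals mark the paired heat shock unit GAANNTTC in Hspa1a and Hspa1b, 104 bases before the start, and the endoplasmic reticulum stress element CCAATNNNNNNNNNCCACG in Hspa5, 65 bases before the start. The sequences are given 5′ to 3′ along the gene, for Hspa1l chr17:34972583-34972702 (plus), for Hspa1a chr17:34972157-34972276 (minus), for Hspa1b chr17:34959239-34959358 (minus) and for Hspa5 chr2:34772020-34772049 (plus).
Hspa1l: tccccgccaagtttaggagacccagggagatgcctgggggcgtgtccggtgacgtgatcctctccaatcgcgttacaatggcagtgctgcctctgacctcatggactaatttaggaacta
Hspa1a: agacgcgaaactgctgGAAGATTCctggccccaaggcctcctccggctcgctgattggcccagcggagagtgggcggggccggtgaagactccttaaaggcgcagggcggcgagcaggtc
Hspa1b: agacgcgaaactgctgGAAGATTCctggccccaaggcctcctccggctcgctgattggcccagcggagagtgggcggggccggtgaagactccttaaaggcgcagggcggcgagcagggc
Hspa5: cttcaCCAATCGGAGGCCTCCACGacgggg
In the GENCODE M21 annotation of GRCm38 the genes are all protein-coding. Hspa2 lies at chr12:76404176-76406938 on the plus strand. The others are Hspa1l (chr17:34972703-34979285, plus), Hspa1a (chr17:34969190-34972156, minus), Hspa1b (chr17:34956436-34959238, minus), Hspa8 (chr9:40800984-40810087, plus), Hspa5 (chr2:34771970-34777547, plus), Hsp90aa1 (chr12:110690605-110702728, minus), Hsp90ab1 (chr17:45567775-45573271, minus), Hspa4l (chr3:40744495-40796103, plus) and Hsph1 (chr5:149614287-149636376, minus). The Hspa5 stretch printed above lies inside the GENCODE span of the gene, before its RefSeq start. Over the 250 bases before the start, Hspa1a and Hspa1b were identical at 247 (98.8%). The paired unit occurred in 7.86% of 32851 promoters of the table, on either strand, and the stress element in 0.119%. A longer heat shock element, GAANNTTCNNGAA (0.603% of promoters), was searched as well and was found in Hsph1 alone among the 7, after its RefSeq start site, where it overlapped a match of the paired unit. The promoter windows of Hspa2, Hspa1l and Hspa4l held none of the 3 motifs.

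Because libraries carry the results, their differences come first. The deposited barcodes held 55751481, 65728120 and 78455606 UMIs (unique molecular identifiers, each marking a captured RNA molecule) in smoking libraries 1 to 3, and 40675108, 39607204 and 54915594 in control libraries 1 to 3. Of 54253 barcodes 47885 were retained. Control library 3 lay nearer to smoking library 1 than to the other controls in its gene totals (chi-square per degree of freedom 11.2, against 36.96 and 24.49 for the distance to control libraries 1 and 2), and elongating spermatids held 31.2% of its retained UMIs, against 16.2% and 12.7% in control libraries 1 and 2 and 30.7 to 43.1% in smoking libraries. Pairs of libraries shared 16 to 34 barcode sequences. Barcodes were clustered without the 10 members, and clusters were named from 3 to 15 fixed markers as cell-type-like classes, called below by the cell type alone: spermatogonia (284 barcodes), early spermatocytes (245), spermatocytes (4809), round spermatids (7838), elongating spermatids (4643), Sertoli cells (4366), Leydig cells (437), macrophages (437), mesenchymal cells (332), and 2 small classes, myoid (170) and endothelial (86). The other 50.6% of barcodes stayed unnamed. The spermatocyte class holds markers of early and of late spermatocytes together. Of its 3 clusters, cluster 11 showed 10 early and 6 late markers, cluster 10 showed 3 early and 2 late, and cluster 5 showed 2 early and 6 late. The clusters of the early spermatocyte class showed 10 to 15 early markers, so the classes are not cleanly parted by stage. Where cluster 5 alone as the spermatocyte class ends or adds a call or moves a called value by over 1.5 times, this is said beside it (an alternative chosen after seeing the data). Levels are counts per 1000000 (CPM) of the UMIs summed per class and library, values of a group are given in the order of libraries 1 to 3, and ± after a mean is the SD. The class sums held 231739 to 392723 UMIs per library in early spermatocytes, 426091 to 668611 in spermatogonia and at least 4576406 in spermatocytes. Free RNA in the droplets, estimated from transcripts of another lineage, made up 63.2 to 86.1% of the Sertoli cell sums, 19.0 to 48.1% of the spermatocyte sums and 2.47 to 4.58% of the elongating spermatid sums. Its profile was taken as the sum of all deposited barcodes of a library. RNA held inside cells therefore counts toward it, and the estimate for a gene can be too high.

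**Figure D1:**
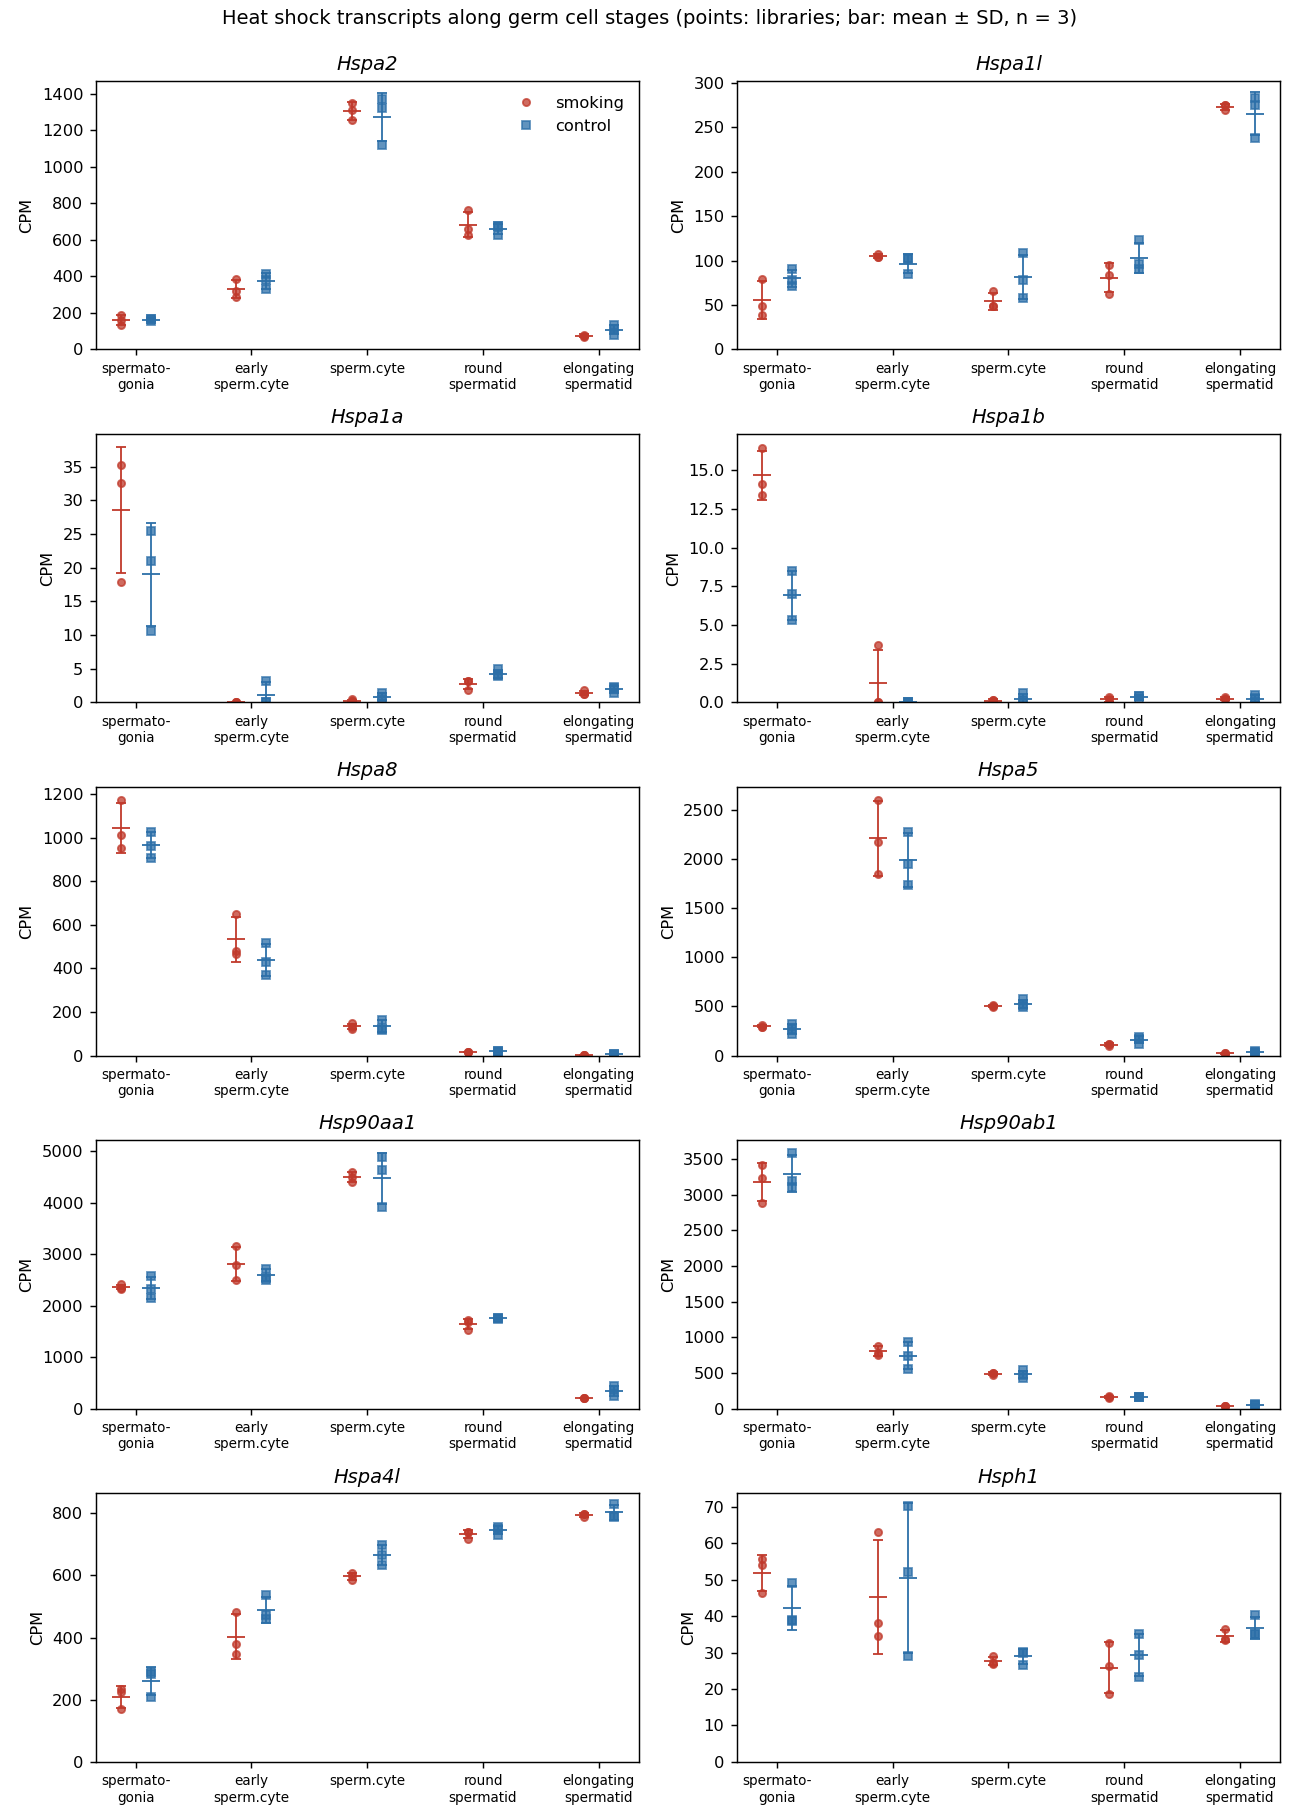
Levels of the 10 genes (y axis, CPM, linear, each panel with its own scale) in 5 germ cell classes (x axis) with one point per library, smoking libraries as circles left of control libraries as squares, and bars for the mean ± SD of 3 libraries. Hspa2 and Hsp90aa1 stand highest in spermatocytes, Hspa5 in early spermatocytes, Hspa8 and Hsp90ab1 in spermatogonia, and Hspa1l and Hspa4l in elongating spermatids.

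The first question was how each gene varied along germ cell development. Each class was set against the one before it with edgeR's quasi-likelihood test, with the library as a block and p-values adjusted over 11919 genes, and a gene was called at an adjusted p under 0.05. Of the 10 members, 3 were called higher and 4 lower in early spermatocytes than in spermatogonia, where 26.3% and 23.5% of all genes were. In spermatocytes against early spermatocytes 3 were higher and 3 lower (all genes 28.5% and 32.3%), and in round spermatids against spermatocytes 3 were higher and 5 lower (all genes 38.0% and 44.5%). In elongating against round spermatids 5 were higher and 4 lower (all genes 36.8% and 30.8%). With 3 to 5 of 10 members in each direction, nothing is read from the counts, and what follows rests on each gene's own size and direction. The median log2 fold of the members was 0.084, -0.32, -0.18 and 0.31 over the 4 steps, against 0.10, 0.010, -0.14 and 0.14 over all genes. The last step depends on the scale. With TMM, which equalises the middle of the gene distribution, the median fold of all genes was 0.14, and with library totals, the scale of the CPM values, it was -1.53. Folds for this step are therefore given on both scales, TMM first.

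Hspa2, the meiotic HSP70, was highest in spermatocytes in 6 of 6 libraries. Its level was 161 ± 18.7 CPM in spermatogonia, 353 ± 47.8 CPM in early spermatocytes, 1289 ± 90.6 CPM in spermatocytes, 672 ± 49.8 CPM in round spermatids and 92.1 ± 24.8 CPM in elongating spermatids (n = 6 libraries). In spermatocytes it stood at 1309.7, 1258 and 1352 CPM in smoking libraries and 1321, 1122 and 1372 CPM in control libraries, and the groups overlapped. The step into early spermatocytes was a rise (log2 fold 1.09 ± 0.15 SE, adjusted p = 3.4e-09), as was the step into spermatocytes (log2 fold 2.19 ± 0.14 SE, adjusted p = 5.2e-23). It then fell in round spermatids (log2 fold -0.62 ± 0.12 SE, adjusted p = 4.2e-06) and again in elongating spermatids (log2 fold -1.19 ± 0.12 SE, adjusted p = 1.1e-13, and -2.89 on library totals). With the estimated free RNA subtracted, the first rise and the fall in round spermatids were no longer called (adjusted p = 0.067 and 0.93). The estimated free RNA is 33.2 to 80.9% of the Hspa2 counts of spermatogonia and 6.91 to 24.1% of those of spermatocytes. The 3 spermatocyte clusters differed among themselves, with 1586 ± 131 CPM in cluster 11, 1092 ± 105 CPM in cluster 5 and 549.7 ± 41.2 CPM in cluster 10. Cluster 11 held 10.6 to 19.4% of the spermatocyte barcodes and 43.6 to 62.9% of their UMIs, so the class sums lean on it.

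Among named classes Hspa1l, the spermatid HSP70, was highest in elongating spermatids in 6 of 6 libraries, with 275, 269.7 and 276 CPM in smoking libraries and 238, 283 and 276 CPM in control libraries. The values of the groups overlapped and lay within a narrow band. In round spermatids it averaged 91.9 ± 19.5 CPM, and in spermatocytes 67.8 ± 22.8 CPM. It rose in elongating over round spermatids (log2 fold 3.34 ± 0.17 SE, adjusted p = 4.5e-28, and 1.58 on library totals). The step from spermatocytes to round spermatids was called with the whole class (log2 fold 0.76 ± 0.16 SE, adjusted p = 1.9e-05) but not with cluster 5 alone as spermatocytes (0.034, adjusted p = 0.87). Of its counts in spermatocytes, 64.8 to 82.2% is the estimated free RNA, and in elongating spermatids 1.46 to 3.0%. Within round spermatids it was 51.9 ± 3.62 CPM in cluster 3 and 166 ± 15.9 CPM in cluster 12, and within elongating spermatids 292 ± 18.5 CPM in cluster 23, 279.9 ± 14.9 CPM in cluster 17 and 181 ± 18.5 CPM in cluster 26. The unnamed cluster 7 stood at 304 ± 25.1 CPM. The gene overlaps an antisense gene, Gm10501, on the opposite strand, and the sources used here do not say whether counting used the strand.

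Hspa1a and Hspa1b, the heat-inducible pair, averaged at most 3.52 CPM over the 6 libraries in the class sums of germ cells past the spermatogonium. Single clusters stood higher in Hspa1a, with 13.6 ± 1.94 CPM in round spermatid cluster 12, and 21.7 ± 3.44 CPM and 15.1 ± 3.86 CPM in the unnamed clusters 6 and 1. In spermatogonia Hspa1a was at 35.2, 17.9 and 32.6 CPM in smoking libraries and 25.4, 21.03 and 10.6 CPM in control libraries, with overlapping groups, and Hspa1b at 14.1, 16.5 and 13.4 CPM in smoking libraries and 8.48, 7.01 and 5.30 CPM in control libraries, without overlap. The Hspa1b values rest on 24 UMIs in smoking and 12 in control spermatogonia, and the gene did not pass the filter on low counts for the smoking comparison in that class. Early spermatocytes held 1 UMI of each gene in all 6 libraries together, and spermatocytes 19 UMIs of Hspa1a and 6 of Hspa1b among 34924966. The rate of Hspa1a in spermatogonia was 42.3 times that in spermatocytes (95% exact interval 25.4 to 74.1, counting error only), and that of Hspa1b 62.7 times (26.2 to 182). Against early spermatocytes the ratio was 40.2 for Hspa1a (7.01 to 1609). The estimated free RNA is 218 to 848% of the Hspa1a count of spermatocytes. An estimate above the whole count is too high for this gene, so how many of these few UMIs are free RNA is not known.

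Round spermatids held 247 UMIs of Hspa1a, at 3.18, 3.20 and 1.86 CPM in smoking libraries and 4.96, 4.03 and 3.86 CPM in control libraries, and the rate was 6.04 times that of the 19 UMIs of spermatocytes (95% exact interval 3.78 to 10.2, counting error only). The gene is among those called higher at this step, but the spermatocyte count is low and its share of free RNA is not known, so no fold over it is given. The smoking libraries lay below the controls without overlap, a comparison tested further on. The estimated free RNA is 8.74 to 23.8% of the Hspa1a counts of round spermatids. Of the round spermatid UMIs 156 were in cluster 12, where the level was 13.6 ± 1.94 CPM, against 1.06 ± 0.349 CPM in cluster 3. In elongating spermatids it was 1.67 ± 0.475 CPM, and the sign of the last step turned with the scale (log2 fold 0.71 with TMM, -1.05 on library totals, both called). Hspa1a overlaps Gm20481 on the opposite strand. Hspa1a and Hspa1b are near-identical copies whose reads could be split in counting, although no window of 60 bases in the last 600 of the transcript was shared between any pair of the members.

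Hspa8, the constitutive HSP70, fell at every step. It was 1006 ± 92.3 CPM in spermatogonia, 486 ± 95.5 CPM in early spermatocytes, 135 ± 18.1 CPM in spermatocytes, 18.6 ± 2.58 CPM in round spermatids and 4.13 ± 1.49 CPM in elongating spermatids. The falls were called at each step, with log2 fold -1.08 ± 0.14 SE, adjusted p = 1.1e-09, then log2 fold -1.53 ± 0.14 SE, adjusted p = 1.6e-15, then log2 fold -2.55 ± 0.14 SE, adjusted p = 1.2e-26, then log2 fold -0.48 ± 0.16 SE, adjusted p = 0.0054, and -2.25 on library totals. With cluster 5 alone as spermatocytes the falls into and out of that class were -3.02 and -1.11, both called. In elongating spermatids 58.9 to 93.0% of the few remaining counts is the estimated free RNA. Spermatogonia stood at 953, 1011 and 1173 CPM in smoking libraries and 1026, 908 and 963 CPM in control libraries, with overlapping groups.

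Hspa5, the chaperone of the endoplasmic reticulum, peaked in early spermatocytes in 6 of 6 libraries, at 2602, 1849 and 2178 CPM in smoking libraries and 1951, 1741 and 2278 CPM in control libraries. The groups overlapped, and the lowest of these values lies above every library of every other class. It averaged 285 ± 35.1 CPM in spermatogonia, 517 ± 28.0 CPM in spermatocytes, 136 ± 36.5 CPM in round spermatids and 30.1 ± 11.6 CPM in elongating spermatids. The rise was log2 fold 2.86 ± 0.14 SE, adjusted p = 1.5e-27, and the next steps were falls (log2 fold -1.71 ± 0.13 SE, adjusted p = 1.8e-19, then log2 fold -1.65 ± 0.12 SE, adjusted p = 1.3e-19, then log2 fold -0.51 ± 0.13 SE, adjusted p = 2.8e-04, -2.21 on library totals). Among early spermatocyte clusters it was 3083 ± 587 CPM in cluster 14.0, 1171 ± 460.1 CPM in 14.2 and 1167 ± 229 CPM in 14.7. Within round spermatids cluster 19 held 484 ± 73.2 CPM and cluster 3 63.4 ± 14.2 CPM.

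Of 14 other endoplasmic reticulum stress genes, 11 rose and 2 fell in early spermatocytes over spermatogonia (all genes 26.3% and 23.5%, median log2 fold 1.01, all genes 0.10). In spermatocytes over early spermatocytes 4 rose and 7 fell (all genes 28.5% and 32.3%, median -0.52, all genes 0.010). In round spermatids over spermatocytes 3 rose and 9 fell (all genes 38.0% and 44.5%, median -1.37, all genes -0.14). In elongating over round spermatids 3 rose and 7 fell (TMM, all genes 36.8% and 30.8%, median -0.64, all genes 0.14). Calr, a calcium-binding lectin chaperone, was 1160.0 ± 177 CPM in early spermatocytes, against 297 ± 29.6 CPM in spermatogonia (log2 fold 1.93 ± 0.12 SE). Ern1, the sensor IRE1 of the unfolded protein response, was 41.0 ± 18.1 CPM in early spermatocytes, against 5.25 ± 6.01 CPM in spermatogonia (log2 fold 3.01 ± 0.43 SE). Its spermatogonial level rests on a few UMIs per library, with an SD above the mean, so the size of this fold is uncertain. Dnajc3, a J domain partner of Hspa5, was 369.7 ± 78.1 CPM in early spermatocytes, against 57.5 ± 9.47 CPM in spermatogonia (log2 fold 2.66 ± 0.17 SE). Pdia4, a disulfide isomerase, fell at the next step to 15.7 ± 1.41 CPM in spermatocytes, against 176 ± 28.5 CPM in early spermatocytes (log2 fold -3.15 ± 0.18 SE).

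The HSP90 genes ran in different directions. Hsp90aa1 was highest in spermatocytes in 6 of 6 libraries, at 4595, 4407 and 4490.4 CPM in smoking libraries and 4626, 3915 and 4874 CPM in control libraries, with overlapping groups. It was 2353 ± 136 CPM in spermatogonia, 2698 ± 255 CPM in early spermatocytes, 1699.9 ± 86.7 CPM in round spermatids and 276 ± 97.6 CPM in elongating spermatids. The first step missed the threshold (log2 fold 0.17 ± 0.11 SE, adjusted p = 0.21). It then rose in spermatocytes (log2 fold 1.05 ± 0.11 SE, adjusted p = 6.3e-13) and fell in round spermatids (log2 fold -1.09 ± 0.11 SE, adjusted p = 4.5e-14) and elongating spermatids (log2 fold -0.98 ± 0.11 SE, adjusted p = 3.6e-12, and -2.65 on library totals). With cluster 5 alone the rise into spermatocytes was 0.68, still called. It was not called when each barcode had equal weight (limma, log2 fold 0.21, adjusted p = 0.16), and cluster 11 held 5690.2 ± 339 CPM, against 2074 ± 173 CPM in cluster 10. The fall in round spermatids was not called with free RNA subtracted (adjusted p = 0.35).

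Hsp90ab1, the constitutive HSP90, was highest in spermatogonia in 6 of 6 libraries, at 3424, 2893 and 3232 CPM in smoking libraries and 3588, 3195 and 3115 CPM in control libraries. The groups overlapped there. In early spermatocytes it averaged 772 ± 132 CPM, in spermatocytes 485 ± 36.2 CPM, in round spermatids 163 ± 7.47 CPM and in elongating spermatids 47.9 ± 10.2 CPM. It fell in early spermatocytes (log2 fold -2.10 ± 0.13 SE, adjusted p = 4.0e-22) and in round spermatids (log2 fold -1.25 ± 0.12 SE, adjusted p = 9.2e-15). The step between the spermatocyte classes was a small fall (log2 fold -0.36 ± 0.13 SE, adjusted p = 0.012) that turned into a rise of 0.28 among barcodes of at least 6000 UMIs. With cluster 5 alone as spermatocytes it was -1.11, and the fall in round spermatids -0.55, both called. The last step was not called with TMM (log2 fold -0.087 ± 0.12 SE, adjusted p = 0.55) and was called on library totals (-1.79, adjusted p = 3.0e-22).

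Of the HSP110 genes, Hspa4l had its lowest mean at the start and its highest at the end of the named germ cell classes, with 234 ± 45.3 CPM in spermatogonia, 446 ± 71.0 CPM in early spermatocytes, 632 ± 43.8 CPM in spermatocytes, 739 ± 13.4 CPM in round spermatids and 799 ± 16.6 CPM in elongating spermatids. The unnamed clusters 7 and 6 stood higher, at 1506 ± 126 CPM and 1146 ± 54.1 CPM. The elongating spermatids stood at 788, 798 and 799 CPM in smoking libraries and 831, 787 and 791 CPM in control libraries, and the groups overlapped. With TMM the rise was called at each step (log2 fold 0.90 ± 0.15 SE, adjusted p = 9.9e-07, then log2 fold 0.81 ± 0.14 SE, adjusted p = 9.6e-07, then log2 fold 0.54 ± 0.13 SE, adjusted p = 1.9e-04, then log2 fold 1.85 ± 0.14 SE, adjusted p = 6.0e-20). On library totals the last steps were 0.23 and 0.11 and were not called (adjusted p = 0.067 and 0.36). Free RNA is estimated at 44.5 to 69.5% of its counts in spermatogonia and 2.24 to 4.30% in elongating spermatids, and with it subtracted the steps into early spermatocytes and spermatocytes were not called (adjusted p = 0.23 and 0.053).

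Hsph1 was low in the class sums, at 47.1 ± 7.27 CPM in spermatogonia, 47.9 ± 16.6 CPM in early spermatocytes, 28.3 ± 1.62 CPM in spermatocytes, 27.6 ± 6.09 CPM in round spermatids and 35.7 ± 2.51 CPM in elongating spermatids. No class stood apart in every library. The steps into and out of spermatocytes were not called with the whole class, and were called with cluster 5 alone (-0.76, adjusted p = 0.0028, and 0.54, adjusted p = 0.0019). The last step was called (log2 fold 2.14 ± 0.13 SE, adjusted p = 1.1e-24, and 0.39 on library totals), and with equal weight for each barcode it had the opposite sign and was not called (-0.32). Within elongating spermatids it was 56.1 ± 13.7 CPM in cluster 26, 37.4 ± 2.59 CPM in cluster 17 and 13.9 ± 7.18 CPM in cluster 23. Within round spermatids it was 69.7 ± 7.75 CPM in cluster 12, against 13.2 ± 1.44 CPM in cluster 3. The unnamed cluster 1 held 77.0 ± 5.66 CPM.

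The partners of the members were followed in the same fits, with the steps taken in order from early spermatocytes over spermatogonia to elongating over round spermatids (TMM). Their counts stand against 26.3%, 28.5%, 38.0% and 36.8% of all genes called higher at these steps and 23.5%, 32.3%, 44.5% and 30.8% called lower. Of 14 HSP90 co-chaperones, 4, 10, 1 and 3 were called higher and 7, 3, 11 and 8 lower over the 4 steps, and their median log2 folds were -0.46, 0.57, -0.75 and -0.51. Fkbp4, a peptidyl-prolyl isomerase of HSP90 complexes, was 653 ± 50.6 CPM in spermatocytes, against 192 ± 28.6 CPM in early spermatocytes (log2 fold 2.07 ± 0.12 SE). Of 8 subunits of the TRiC chaperonin, which folds actin and tubulin, 1, 7, 2 and 3 were called higher and 4, 0, 5 and 4 lower over the 4 steps (medians -0.27, 1.21, -0.30 and -0.28). Tcp1, one of its subunits, was 1848 ± 95.5 CPM in spermatocytes, against 777 ± 64.3 CPM in early spermatocytes (log2 fold 1.57 ± 0.12 SE), and Cct6b, a testis form of another subunit, was 290.4 ± 7.82 CPM in spermatocytes, against 87.7 ± 21.9 CPM in early spermatocytes (log2 fold 2.03 ± 0.16 SE).

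Of 40 J domain co-chaperones, which stimulate the HSP70 cycle, 25, 17, 18 and 26 were called higher and 8, 13, 16 and 8 lower over the 4 steps (medians 0.65, 0.25, -0.0066 and 0.98). Dnajb8 (log2 fold 3.55 ± 0.19 SE) and Dnajb3 (log2 fold 2.73 ± 0.17 SE) were among those that rose in elongating over round spermatids. Of 12 nucleotide exchange factors and co-factors of HSP70, 3, 9, 3 and 5 were called higher and 3, 2, 6 and 4 lower over the 4 steps (medians -0.11, 0.78, -0.20 and 0.072), with Bag1, a BAG family exchange factor, at log2 fold 3.32 ± 0.13 SE in elongating over round spermatids. Of 6 other HSP70 family genes, 1, 3, 0 and 3 were called higher and 2, 1, 6 and 2 lower over the 4 steps (medians -0.70, 0.36, -0.85 and 0.44). Of 2 other HSP90 family genes, 1, 1, 0 and 0 were called higher and 1, 0, 2 and 2 lower over the 4 steps. The heat shock factor list held transcription factors and Hsbp1, which encodes a protein that binds them. Of its 5 genes tested, 1, 2, 3 and 1 were called higher and 2, 1, 2 and 2 lower over the 4 steps. Hsbp1 was among those lower at the first step and higher at the second. In round spermatids over spermatocytes Hsf2 stood at log2 fold 2.46 ± 0.12 SE, Hsfy2 at log2 fold 3.77 ± 0.15 SE and Hsf1 at log2 fold -1.13 ± 0.13 SE. Of 7 small heat shock protein genes, 3, 2, 3 and 3 were called higher and 0, 2, 2 and 1 lower over the 4 steps. One of these, Odf1, is also a marker by which elongating spermatids were named. Its rise at the last step (log2 fold 2.01 ± 0.15 SE) is therefore not independent of the class names. The last list held 4 mitochondrial genes, the chaperonin genes Hspd1 and Hspe1 together with Clpb and Clpp. Of these, 1, 1, 1 and 1 were called higher and 3, 2, 3 and 3 lower over the 4 steps. The gene called higher was Clpp at the second step and Clpb at the others, so neither chaperonin gene was called higher. No list was compared with other genes by a test of the list.

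**Figure D2:**
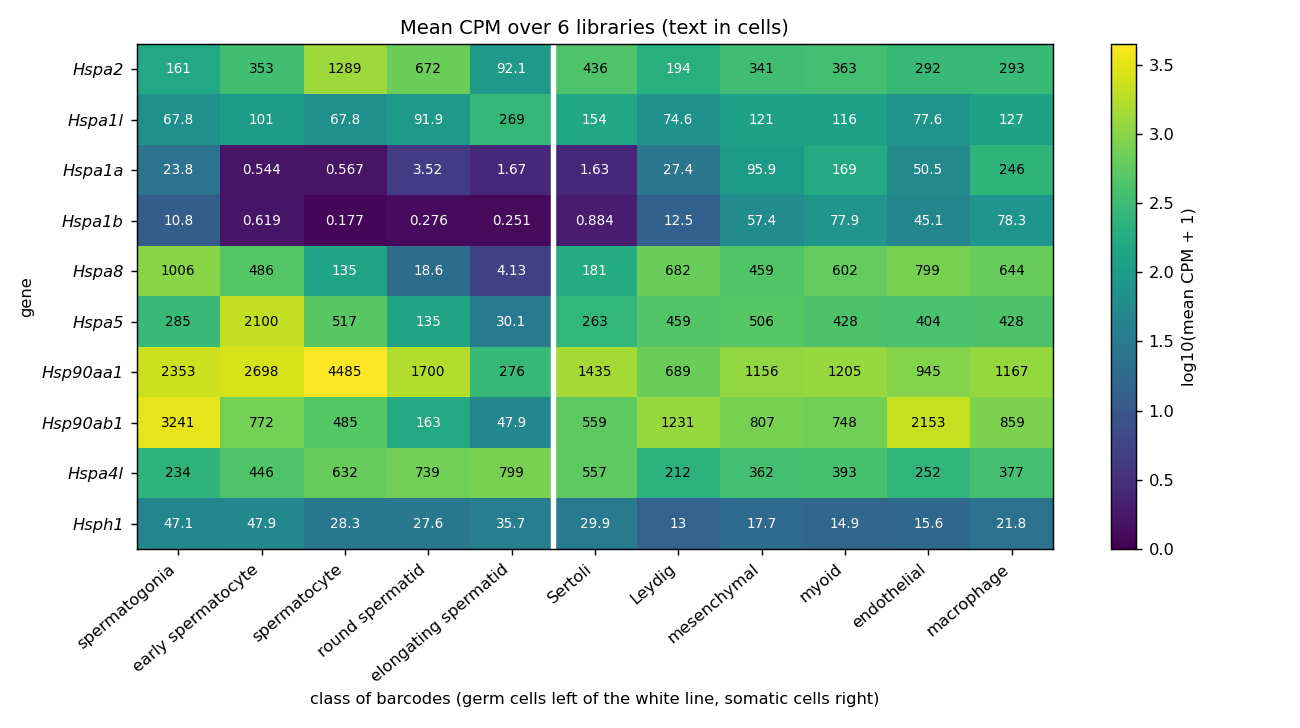
Mean CPM over 6 libraries (number in each cell, colour on a log10(CPM + 1) scale) of the 10 genes (rows) in 5 germ cell classes and 6 somatic classes (columns). Hspa1a stands at 246 CPM in macrophages and below 4 CPM in every germ cell class past spermatogonia, and Hspa8 falls to 4.13 CPM in elongating spermatids.

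The second comparison set the 5 germ cell classes, each with equal weight, against the 4 tested somatic classes (Sertoli, Leydig, macrophage and mesenchymal cells). Of the 10 members 4 were higher and 5 lower in germ cells, where 35.3% and 35.3% of 11919 genes were. The higher ones were Hspa2 (log2 fold 0.37 ± 0.065 SE, adjusted p = 9.5e-07), Hsp90aa1 (log2 fold 0.84 ± 0.055 SE, adjusted p = 2.2e-22), Hspa4l (log2 fold 0.76 ± 0.070 SE, adjusted p = 1.6e-15) and Hsph1 (log2 fold 1.09 ± 0.12 SE, adjusted p = 5.9e-12). Hspa1l was not called (log2 fold 0.030 ± 0.10 SE, adjusted p = 0.82). The lower ones were Hspa1a and Hspa1b, whose levels are given below, Hspa8 (log2 fold -2.14 ± 0.068 SE, adjusted p = 1.0e-39), Hspa5 (log2 fold -0.44 ± 0.062 SE, adjusted p = 4.6e-09) and Hsp90ab1 (log2 fold -0.89 ± 0.060 SE, adjusted p = 1.0e-21).

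Free RNA weighs on the somatic side. Sertoli cells showed Hspa2 at 412, 425 and 443 CPM in smoking libraries and 472, 445 and 419 CPM in control libraries, of which the estimated free RNA is 70.1 to 108%, and Hspa4l at 557 ± 38.1 CPM, of which it is 92.2 to 107%. With the estimate subtracted, the log2 fold of germ over somatic classes was 1.92 for Hspa2, 3.78 for Hspa4l, 2.16 for Hsp90aa1 and 2.29 for Hsph1, all called (edgeR, highest adjusted p = 3.8e-07). An estimate above the whole count is too high, so the size of these subtracted folds is uncertain. With Sertoli cells as the one somatic class and no subtraction, Hspa2 and Hspa4l were not called (-0.084 and 0.19), Hspa5 was higher in germ cells (0.27) and Hspa1l lower (-0.29). In the partner lists, beside 35.3% of all genes higher and 35.3% lower, 8 of 8 TRiC subunits were higher and 0 lower in germ cells. Of the 5 genes of the heat shock factor list, 4 were higher, with Hsbp1 among them, and 0 lower. 24 of 40 J domain co-chaperones were higher and 8 lower, 7 of 14 HSP90 co-chaperones were higher and 5 lower, and 6 of 12 exchange factors were higher and 3 lower. Of 14 endoplasmic reticulum stress genes, 3 were higher and 8 lower in germ cells. Of 7 small heat shock protein genes, 2 were higher and 4 lower, and of 6 other HSP70 family genes 2 were higher and 3 lower. Of 2 other HSP90 family genes, 0 were higher and 1 lower. Of the 4 mitochondrial genes, 1 (Clpb) was higher and 3 were lower, among them both chaperonin genes.

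Macrophages had Hspa1a at 194, 286 and 180.2 CPM in smoking libraries and 174, 305 and 339 CPM in control libraries, and the groups overlapped. Hspa1b stood at 62.6, 96.0 and 33.8 CPM in smoking libraries and 48.6, 130.3 and 98.7 CPM in control libraries. Myoid cells had Hspa1a at 114 to 237 CPM, mesenchymal cells at 53.7 to 151 CPM and Leydig cells at 5.21 to 43.5 CPM, whereas Sertoli cells had 0.779 to 2.47 CPM. The immediate early genes that respond to tissue dissociation differed in the same direction between germ and somatic classes. Of 13 genes 0 were higher and 13 lower in germ cells (all genes 35.3% and 35.3%). Their summed level was 7193 to 9213 CPM in macrophages, 286 to 496 in Sertoli cells, 585 to 755 in spermatogonia and 68.8 to 89.8 in spermatocytes. In myoid cells it was 7204.5 to 16034 CPM. Mesenchymal cells (6030 to 11537 CPM) and Leydig cells (4338 to 8162 CPM) also had high sums, although their Hspa1a was lower than in macrophages. The part of the immediate early genes in the Hspa1a and Hspa1b levels was not tested. Hspa8 was 644 ± 90.4 CPM in macrophages and 682 ± 139 CPM in Leydig cells, against 181 ± 40.5 CPM in Sertoli cells, and Hsp90ab1 was 2153 ± 441 CPM in endothelial cells, its highest somatic class.

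The third comparison set smoking against control libraries within each class. The filter on low counts left 9 members in spermatogonia, 8 in early spermatocytes, 8 in spermatocytes, 9 in round spermatids, 9 in elongating spermatids, 8 in Sertoli cells, 8 in Leydig cells, 9 in macrophages, 9 in mesenchymal cells and 10 in all barcodes. The others of the 10 were too low to be tested there, Hspa1b in most classes. No member was called by edgeR in any of the 9 classes or in the sum of all barcodes. The background was low as well: 0.0387% of genes were called in spermatogonia, 0.0367% in early spermatocytes, 0% in spermatocytes and in round spermatids, 0.809% in elongating spermatids (93 of 11498), 0.00948% in Sertoli cells, and 0% in Leydig cells, macrophages, mesenchymal cells and all barcodes. At an unadjusted p under 0.05 there were 2 members in spermatocytes, 2 in round spermatids and 4 in elongating spermatids. There was 1 each in macrophages, mesenchymal cells and all barcodes, and 0 in the other classes. Of all genes, 2405 of 12018 passed this limit in spermatocytes, 2085 of 14220 in round spermatids and 2645 of 11498 in elongating spermatids. In macrophages it was 285 of 5668, in mesenchymal cells 196 of 4296 and in all barcodes 2941 of 19015. Nothing is read from these member counts. DESeq2 called 3 members in elongating spermatids and 0 elsewhere. Over all genes it also called far more in elongating spermatids than the 93 of edgeR, as given at the end. The members' median log2 fold was -0.25 in elongating spermatids (all genes -0.066), -0.12 in round spermatids (all genes -0.020) and -0.14 in all barcodes (all genes -0.035).

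**Figure D3:**
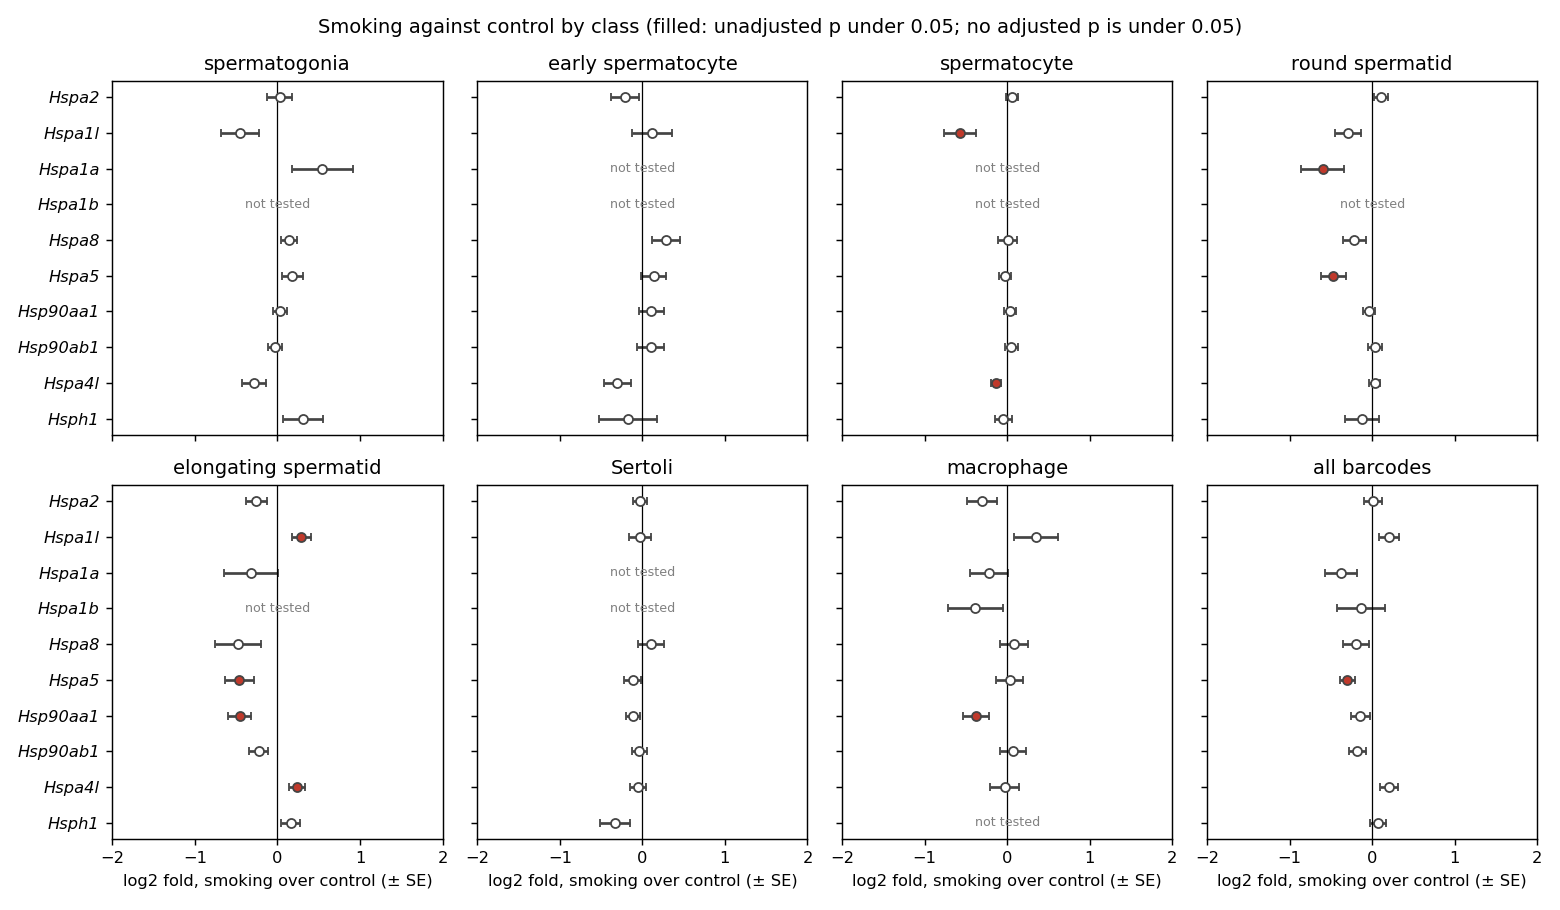
Log2 fold of smoking over control (x axis, ± SE, edgeR with TMM) for the 10 genes (y axis) in 5 germ cell classes, Sertoli cells, macrophages and all barcodes. Filled points have an unadjusted p under 0.05, and no adjusted p is under 0.05; the 4 filled points in elongating spermatids are Hspa1l and Hspa4l above 0 and Hspa5 and Hsp90aa1 below 0.

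Elongating spermatids came nearest to the threshold. Hsp90aa1 was at 202, 213 and 209 CPM in smoking libraries and 355, 437 and 239.5 CPM in control libraries, and Hspa5 at 19.0, 22.8 and 25.1 CPM in smoking libraries and 39.3, 49.1 and 25.4 CPM in control libraries. Every smoking library lay below every control in both genes, with control library 3 nearest to the smoking libraries. The log2 fold was -0.46 ± 0.14 SE for Hsp90aa1 (adjusted p = 0.088) and -0.46 ± 0.18 SE for Hspa5 (adjusted p = 0.13). The values rest on single control libraries. Without control library 2 they were -0.25 (adjusted p = 0.26) for Hsp90aa1 and -0.24 (adjusted p = 0.41) for Hspa5. Without control library 3 both were called (-0.57, adjusted p = 0.0036, and -0.61, adjusted p = 0.023), as they were on library totals (-0.72, adjusted p = 0.019, and -0.73, adjusted p = 0.045). Over all genes, too, the count called in this class rose on library totals and moved with the library left out, as given at the end.

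Hspa1l and Hspa4l had positive folds with TMM in elongating spermatids, 0.29 ± 0.11 SE (adjusted p = 0.15) and 0.24 ± 0.094 SE (adjusted p = 0.15). Hspa1l was 0.16 without control library 1 (adjusted p = 0.39) and 0.43 without control library 3 (adjusted p = 0.011), and Hspa4l was 0.34 without control library 3 (adjusted p = 0.0042). DESeq2 called Hspa1l (0.35, adjusted p = 0.046), Hspa4l (0.30, adjusted p = 0.040) and Hsp90aa1 (-0.39, adjusted p = 0.045). On library totals Hspa1l and Hspa4l were 0.043 and -0.015, so the sign of Hspa4l turned with the scale. The per-library CPM of both genes, given above, overlapped between the groups. The median of all genes in this class was -0.066 with TMM and -0.30 on library totals, so relative to all genes both genes lay above the middle on either scale. Hspa2 was at 69.0, 75.9 and 81.5 CPM in smoking libraries and 113, 132 and 81.4 CPM in control libraries, with overlapping groups, and Hsp90ab1 at 39.8, 42.8 and 36.9 CPM in smoking libraries and 57.9, 62.2 and 47.6 CPM in control libraries, without overlap.

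**Figure D4:**
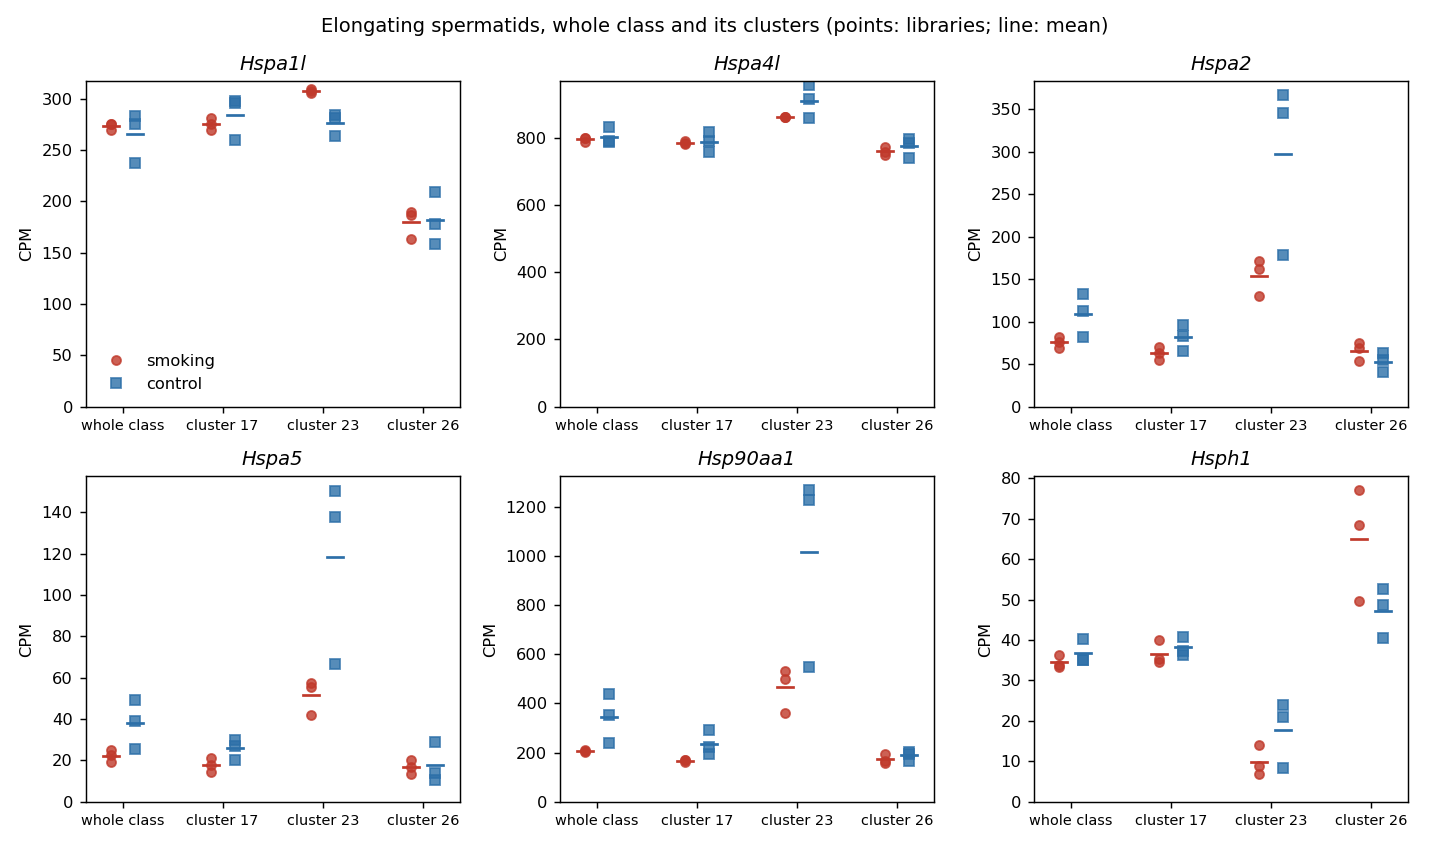
CPM (y axis, from 0) of 6 genes in elongating spermatids as a whole and in each of the 3 clusters of that class (x axis), with one point per library, smoking libraries as circles left of control libraries as squares, and a line at each group mean. Hsp90aa1, Hspa5 and Hspa2 are highest in cluster 23, where control libraries 1 and 2 lie far above control library 3 and the smoking libraries.

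The class is made of 3 clusters. Cluster 23 had Hsp90aa1 at 532, 501 and 362 CPM in smoking libraries and 1228, 1269 and 549.8 CPM in control libraries, and Hspa5 at 55.3, 57.3 and 41.9 CPM in smoking libraries and 138, 150.4 and 66.8 CPM in control libraries. In cluster 17, which held 78.6% ± 4.71 of the UMIs of the class in smoking libraries and 68.2% ± 3.73 in control libraries (SD, n = 3), Hsp90aa1 was at 160.3, 169 and 171 CPM in smoking libraries and 224, 291 and 193 CPM in control libraries. The difference between groups in Hsp90aa1 was smaller there but in the same direction. Cluster 26 held 6.87% ± 0.68 of the UMIs of the class in smoking libraries and 17.2% ± 4.9 in control libraries. The share of cluster 23 was 14.6% ± 4.8 in smoking and 14.7% ± 1.3 in control libraries. With the clusters weighted alike, the fold was -0.51 for Hsp90aa1 and -0.54 for Hspa5, neither called (adjusted p = 0.16 and 0.16).

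In round spermatids Hspa5 was at 96.6, 115 and 120.4 CPM in smoking libraries and 168, 192 and 121 CPM in control libraries. The lowest control lay just above the highest smoking library, and the fold missed the threshold (log2 fold -0.47 ± 0.15 SE, adjusted p = 0.32). With the clusters weighted alike it was -0.11. Hspa1a, given above, had a fold of -0.60 ± 0.26 SE (adjusted p = 0.34), -0.30 with the clusters weighted alike and -0.37 without smoking library 3. In spermatocytes Hspa1l was at 48.4, 65.2 and 48.4 CPM in smoking libraries and 78.5, 108 and 58.3 CPM in control libraries (log2 fold -0.57 ± 0.20 SE, adjusted p = 0.16). Those groups overlapped, and 64.8 to 82.2% of the counts is the estimated free RNA, with which subtracted the fold was -0.37. Without control library 2 it was -0.30 (adjusted p = 0.41), and without control library 3 -0.78 (adjusted p = 0.0040). Hspa4l in spermatocytes was at 598, 607 and 586 CPM in smoking libraries and 699, 666 and 635 CPM in control libraries, every smoking library below every control, with a fold of -0.14 ± 0.062 SE (adjusted p = 0.24, and 0.038 without control library 3).

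In somatic classes Hsp90aa1 in macrophages was at 1119.5, 1061 and 783 CPM in smoking libraries and 1437, 1405 and 1195 CPM in control libraries without overlap (log2 fold -0.38 ± 0.16 SE, adjusted p = 0.90), where 51.0 to 106% of the counts is the estimated free RNA. Hspa1a in mesenchymal cells was at 65.2, 53.7 and 105 CPM in smoking libraries and 112, 88.8 and 151 CPM in control libraries with overlap (log2 fold -0.75 ± 0.31 SE, adjusted p = 1.0). Hspa5 in Leydig cells was at 302, 435 and 464 CPM in smoking libraries and 477, 491 and 587 CPM in control libraries, and in mesenchymal cells at 506, 443 and 455 CPM in smoking libraries and 590.4, 511 and 528 CPM in control libraries. The groups did not overlap in either class, and neither difference had an unadjusted p under 0.05. The same held for Hspa2 in macrophages (log2 fold -0.30) and Hsp90aa1 in mesenchymal cells (-0.30). It also held for Hspa1l in early spermatocytes (0.12) and Hsp90aa1 in round spermatids (-0.037). How many of all genes had groups without overlap was not counted, so nothing is read from it. In the sum of all barcodes Hspa5 was at 178, 189 and 157 CPM in smoking libraries and 269, 274 and 213 CPM in control libraries (log2 fold -0.30 ± 0.093 SE, adjusted p = 0.27), and every smoking library lay below every control. The groups of Hsp90aa1 and Hspa1a did not overlap in this sum either. In such a sum, fewer cells of a type and less RNA per cell cannot be told apart. Hsp90aa1 (log2 fold -0.14 ± 0.12 SE, adjusted p = 0.57), Hspa1a (log2 fold -0.38 ± 0.19 SE, adjusted p = 0.37), Hsp90ab1 (log2 fold -0.18 ± 0.10 SE, adjusted p = 0.42), Hspa8 (log2 fold -0.20 ± 0.16 SE, adjusted p = 0.56) and Hspa1b (log2 fold -0.13 ± 0.29 SE, adjusted p = 0.85) had negative folds. Hspa1l (log2 fold 0.21 ± 0.12 SE, adjusted p = 0.42), Hspa4l (log2 fold 0.20 ± 0.11 SE, adjusted p = 0.39), Hsph1 (log2 fold 0.071 ± 0.092 SE, adjusted p = 0.73) and Hspa2 (log2 fold 0.012 ± 0.11 SE, adjusted p = 0.97) had positive folds with TMM and negative ones on library totals (-0.014, -0.021, -0.15 and -0.22), where the median of all genes moved to -0.25, against -0.035 with TMM.

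Over the classes tested, the log2 fold of smoking over control ran for Hspa2 from -0.30 in macrophages to 0.40 in Leydig cells. It ran for Hspa8 from -0.48 in elongating spermatids to 0.29 in early spermatocytes, and for Hsp90ab1 from -0.23 in elongating spermatids to 0.10 in early spermatocytes. For Hsph1 the span was -0.33 in Sertoli cells to 0.31 in spermatogonia. In spermatocytes, where Hspa2 and Hsp90aa1 are highest, their folds were 0.059 ± 0.074 and 0.029 ± 0.075 (SE). In early spermatocytes, where Hspa5 is highest, its fold was 0.14 ± 0.15, and in spermatogonia Hspa8 and Hsp90ab1 stood at 0.14 ± 0.095 and -0.028 ± 0.084. In each of these classes the libraries of the groups overlapped for the gene named.

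Neighbouring germ cell classes were also compared in their smoking effect, by limma on the within-library differences of log2 CPM. Of the members tested (8, 8, 9 and 9 over the 4 steps) 0 were called, and 0% of all genes were called at each step, with 358, 593, 1508 and 1500 genes at an unadjusted p under 0.05. The member nearest to the threshold was Hspa1l at the step to elongating spermatids (difference of log2 folds 0.64 ± 0.26 SE, adjusted p = 0.43). Among the chaperone, stress and immediate early lists, 1 gene in 1 class was called between smoking and control: Jund, a subunit of the transcription factor AP-1, was higher in smoking elongating spermatids (log2 fold 0.51 ± 0.10 SE, adjusted p = 0.041).

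Across 54 sums of 9 classes and 6 libraries, the genes most alike to each member were found by the Pearson correlation of log2(CPM + 1) over 7110 genes, as a description. The sums share libraries and free RNA, and their classes differ in depth. Hspa5 was closest to Calr (r = 0.963), Canx (0.957) and Dnajc3 (0.953), the first 2 being lectin chaperones of the endoplasmic reticulum. Hspa1b was closest to Hspa1a (0.943). Hspa2 was closest to Chrac1 (0.980), Hspa8 to Rack1 (0.982), Hsp90ab1 to Mat2b (0.978), Hsp90aa1 to Fyttd1 (0.966), Hspa4l to Haspin (0.9503), Hspa1l to Nbr1 (0.906), Hspa1a to Bin1 (0.943) and Hsph1 to Tex30 (0.754).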

How the data were processed

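Raw UMI counts per gene and barcode were deposited by the authors as filtered matrices, 1 per library. Cell Ranger 3.1.0 made them per the file headers, although version 7.1.0 stands beside CASAVA 1.8 and the genome build mm10 in the submitters' processing notes, and per the labels' protocols dead cells were removed on magnetic columns before 3′ droplet capture. The members and gene lists were chosen with earlier results of these data known. Barcodes with at least 500 UMIs and 300 genes and at most 20% mitochondrial UMIs were kept, doublets were scored by a nearest-neighbour method on simulated pairs and removed (3935), and Leiden clusters (scanpy 1.11.5, 2000 variable genes, 30 components) were made without the 10 members. A cluster was named from at least 3 markers, by a scoring rule set after the data were seen. Counts were summed per class and library, for classes of at least 20 barcodes in every library, and tested in edgeR 4.0.16 (quasi-likelihood, TMM, filterByExpr) with Benjamini-Hochberg adjustment over all genes and a threshold of 0.05. The library was a block between classes, and smoking was compared without a block. Differences between smoking effects used limma 3.58.1 with a prior count of 1, and DESeq2 1.42.0 was an alternative, as were other filters, scales, cluster weights, doublets kept, free RNA subtracted and each library left out. The tests were checked on simulated counts. Genes of the lists were named for the largest absolute folds among those called with a mean of at least 10 CPM, up to 4 per list and comparison. Smoking folds are given for members with an unadjusted p under 0.05 and for all members in the sum of all barcodes, and other members' folds were added after their values were seen. The intervals and the depth given cover counting error only.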

Additional observations from a re-analysis of the deposited data

How the results depend on the processing

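In the smoking comparison 0 members were called in each class, and most alternatives gave 0 as well. In elongating spermatids DESeq2 called 3 members, library totals 4 and no filter on low counts 1, and leaving out each library in turn gave 0 to 4. In spermatocytes no filter gave 1 and leaving out each library 0 to 2, and in round spermatids no filter gave 1. Both upper ends come from leaving out control library 3. Over all genes in elongating spermatids, 93 were called in full, 1022 by DESeq2, 868 without a filter, 1052 on library totals, 235 with doublets kept, 8 with the clusters weighted alike, and 7 to 1897 with a library left out. In spermatocytes the count was 0 in full, 319 by DESeq2, 1055 without a filter and 1866 without control library 3. In round spermatids it was 0 in full, 40 by DESeq2 and 186 without a filter, and in all barcodes 0 in full and 478 by DESeq2. The cause was not tested. In the steps between germ cell classes and between germ and somatic classes, the count of members called stayed within 1.5 times of the full value under each alternative run.

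Single values that turned sign follow. In the smoking comparison this covers all members in the sum of all barcodes and, within a class, those with an unadjusted p under 0.05. Other class-level smoking folds and the differences of smoking effects were not followed, and some of those folds turned sign too. Hsph1 in elongating spermatids, for example, was 0.16 with TMM and -0.089 on library totals. On library totals the smoking fold was -0.015 for Hspa4l in elongating spermatids, and in all barcodes -0.22 for Hspa2, -0.014 for Hspa1l, -0.021 for Hspa4l and -0.15 for Hsph1. With a library left out it ran in all barcodes from -0.061 to 0.093 for Hspa2 and from -0.48 to 0.14 for Hspa1b. For early spermatocytes minus spermatogonia, Hsp90aa1 was -0.037 among barcodes of at least 6000 UMIs and -0.058 with free RNA subtracted, and Hsph1 was 0.022 on library totals, 0.0021 among the deep barcodes and -0.19 to 0.082 with a library left out. For spermatocytes minus early spermatocytes, Hsp90ab1 was 0.28 among the deep barcodes. With cluster 5 alone as spermatocytes, Hspa1l was 0.39 at this step. For round spermatids minus spermatocytes, Hsph1 was -0.0031 without a filter, -0.060 on library totals and -0.13 among the deep barcodes. For elongating minus round spermatids, Hspa1a was -1.05 on library totals and -0.53 as a mean over barcodes, and Hsph1 -0.32 as that mean. For germ minus somatic classes, Hspa1l was -0.18 on library totals, -0.032 by DESeq2 and -0.00039 to 0.076 with a library left out. With Sertoli cells alone as the somatic class, Hspa2 was -0.084, Hspa1l -0.29, Hspa1a 0.78 and Hspa5 0.27. Of the other member values so followed, 199 of the smoking comparison and 541 of the class comparisons kept direction and side of the threshold. A further 14 and 20 passed it only under the alternative, and 0 and 22 passed it only in full.

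Some values could not be had: the germ minus somatic fold of Hspa1a with free RNA subtracted could not be fitted, and steps of Hspa1a and Hspa1b into or out of classes with a few UMIs are not given as folds. The library totals, the limit of 6000 UMIs and cluster 5 alone were chosen after seeing the data. No paired analysis was possible because the labels number no replicates within a group: the library numbers used here follow accession order and tie no smoking library to a control library.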
